A study of Mus musculus with 20 samples.

Results

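The 10 genes described here encode Wnt ligands and R-spondins of the mouse limb: Wnt3, Wnt4, Wnt5a, Wnt5b, Wnt6, Wnt9a, Wnt11, Rspo1, Rspo2 and Rspo3. They were taken by gene symbol from the 19936 genes of an Affymetrix whole-transcript array, all 10 had a probe set, and the probe set with the highest mean stood for each gene. The samples were single limbs of 129Sv embryos at embryonic day 13.5, each hybridized to its own array, in 4 groups of 5. These were forelimbs and hindlimbs of wild-type embryos and forelimbs and hindlimbs of Lmx1b -/- embryos, each group with 3 right and 2 left limbs. Lmx1b encodes a LIM-homeodomain factor of dorsal limb mesenchyme, the series asks which limb genes it controls, and the Lmx1b -/- limbs are called knockouts below. The whole limb was homogenized, so fewer cells of a type and less RNA per cell cannot be told apart. The titles call each array a biological replicate, but nothing in the labels gives each limb an embryo of its own. P-values therefore measure only the spread between these limbs, which may be partly technical.

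Wnt proteins are secreted lipid-modified ligands that bind Frizzled receptors. With the co-receptors Lrp5 or Lrp6 they stabilise beta-catenin, which acts on target genes with Tcf/Lef factors, and through Ror or planar polarity proteins they orient cells without beta-catenin. R-spondins are secreted proteins that bind Lgr receptors and the ubiquitin ligases Znrf3 and Rnf43, which otherwise remove Frizzled from the cell surface, so that a cell with R-spondin answers more strongly to Wnt. In the limb, ectodermal Wnts maintain the apical ridge and the undifferentiated mesenchyme beneath it, Wnt5a drives outgrowth of the distal mesenchyme, and Wnt4 and Wnt9a mark forming joints.

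The arrays followed their labels. Median intensities ranged from 28.6 to 31.8 per array. Lmx1b (probe set 10481835) lay at 6.14 to 6.48 on the log2 intensity scale in wild-type and 5.6 to 5.82 in knockout forelimbs, and at 6.31 to 6.52 in wild-type and 5.81 to 6.09 in knockout hindlimbs. The place of its probes relative to the deletion is unknown here. Tbx5, the forelimb factor, lay at 8.26 to 8.93 in forelimbs and 4.38 to 5.09 in hindlimbs, whereas the hindlimb factors Tbx4 and Pitx1 were higher in every hindlimb array than in any forelimb array. Y-linked genes marked all 5 wild-type forelimbs as male, but only 2 of the 5 knockout forelimbs and 3 of the 5 arrays in each hindlimb group.

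In limbs without Lmx1b, 2 of the 10 genes were lower over both limb types, Wnt11 and Rspo3, and none was higher (limma, Benjamini-Hochberg adjusted p under 0.05 over all genes). The share of all genes called in that comparison was 2.04%. The median log2 change of the 10 genes was -0.07, against -0.002 for all genes. Within limb types, 1 of the 10 passed in forelimbs and 1 in hindlimbs, Wnt11 each time, where 1.27% and 0.231% of all genes passed. The plot of all 10 genes by array shows that wild-type and knockout arrays of a limb type overlapped for the other 8.

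**Figure D1:**
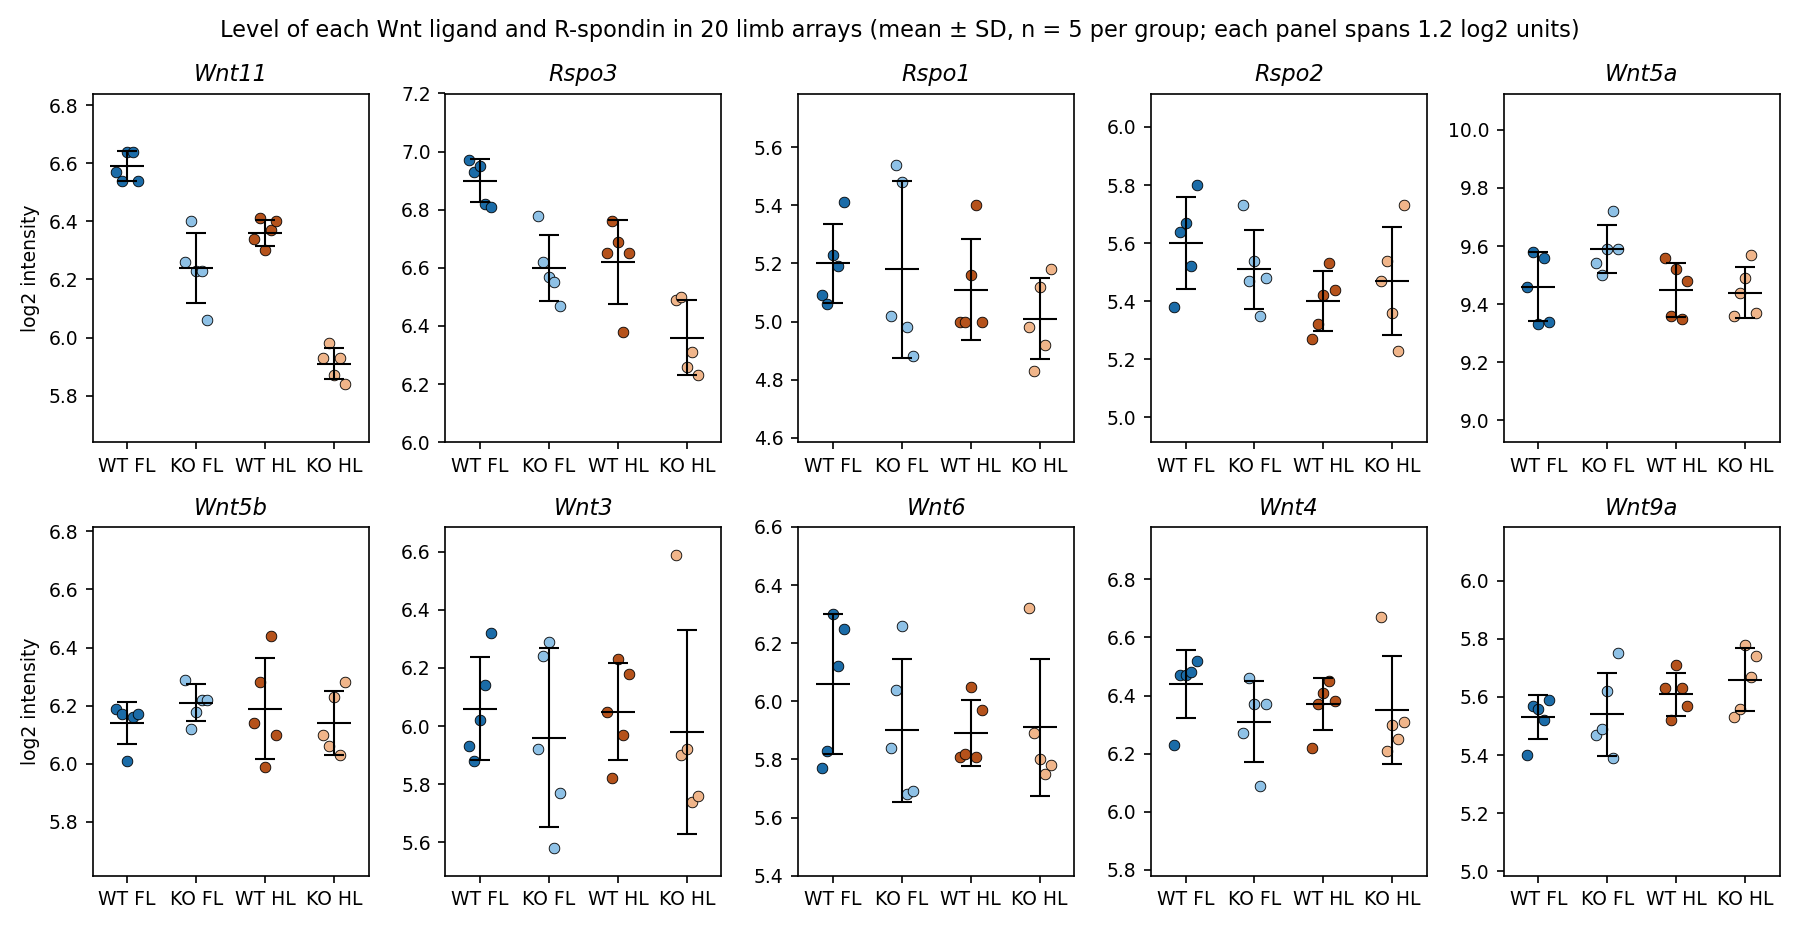
Log2 intensity of each of the 10 genes in each array (points), with the group mean and SD (bars, n = 5), for wild-type (WT) and knockout (KO) forelimbs (FL) and hindlimbs (HL). Every panel spans the same log2 range but starts at its own level. Wnt11 falls from a mean of 6.59 in wild-type forelimbs to 5.91 in knockout hindlimbs, and Rspo3 from 6.90 to 6.36.

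Wnt11, a ligand that acts mainly without beta-catenin and guides cell movements and ureteric bud branching, was measured by probe set 10555186. Both transcription starts that RefSeq annotates for it on GRCm38.p6 lie on the plus strand of chromosome 7, and the 250 bases before each are shown because Wnt11 is the gene of the set with the largest genotype effect. Capitals mark every match on either strand of TAAT (or ATTA), the core that homeodomain proteins such as Lmx1b bind, and of CTTTGAT (or ATCAAAG), a core bound by Tcf/Lef factors.
Wnt11 upstream window at chr7:98834862-98835111: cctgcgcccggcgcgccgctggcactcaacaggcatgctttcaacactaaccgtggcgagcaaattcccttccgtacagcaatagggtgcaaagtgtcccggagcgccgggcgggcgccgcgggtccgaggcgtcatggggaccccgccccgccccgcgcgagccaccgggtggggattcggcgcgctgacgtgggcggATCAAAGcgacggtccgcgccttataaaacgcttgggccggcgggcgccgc
Wnt11 upstream window at chr7:98838595-98838844: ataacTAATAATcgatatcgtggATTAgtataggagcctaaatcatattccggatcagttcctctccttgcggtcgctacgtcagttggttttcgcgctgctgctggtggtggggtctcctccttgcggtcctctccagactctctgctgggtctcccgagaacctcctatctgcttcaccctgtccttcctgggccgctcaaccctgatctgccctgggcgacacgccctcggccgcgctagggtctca
The first window held no TAAT and 1 CTTTGAT match, at a GC content of 70.8%. The second held 3 TAAT matches, of which the first pair share a base, and no CTTTGAT, at 56.8% GC. Among 32851 upstream windows of the same length in RefSeq, 54.9% held TAAT and 3.21% held CTTTGAT, so a TAAT match is common. RefSeq windows were matched for 7 of the 10 genes, 10 windows in all, of which 3 held TAAT, 2 held CTTTGAT and none held the longer homeodomain site TAATTA, which 4.84% of all windows held. These matches describe letters only.

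The 5 wild-type forelimbs had Wnt11 log2 intensities of 6.57, 6.54, 6.64, 6.64 and 6.54 (mean 6.59 ± 0.052, SD, n = 5). The 5 knockout forelimbs had 6.26, 6.40, 6.23, 6.23 and 6.06 (6.24 ± 0.121, SD, n = 5). Every knockout forelimb lay below every wild-type forelimb, with replicate 5 the lowest. In wild-type hindlimbs Wnt11 stood at 6.34, 6.41, 6.30, 6.37 and 6.40 (6.36 ± 0.046, SD, n = 5). In knockout hindlimbs it stood at 5.93, 5.98, 5.87, 5.93 and 5.84 (5.91 ± 0.053, SD, n = 5). These groups did not overlap either, and all 5 knockout hindlimbs were below every other array of the series.

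Over both limb types Wnt11 fell by 0.40 on the log2 scale (SE 0.0404, 95% interval -0.49 to -0.32, limma adjusted p = 1.88e-06), which is 24.3% less signal. It fell by 0.35 in forelimbs (SE 0.0572, adjusted p = 0.00158) and by 0.45 in hindlimbs (SE 0.0572, adjusted p = 0.000159). The hindlimb effect minus the forelimb effect was -0.11 (SE 0.0809, 95% interval -0.27 to 0.06, adjusted p = 1.0), so the 2 effects were not shown to differ. A gene had lower arrays without overlap in the knockouts of both limb types in 0.271% of all genes. Wnt11 was the steadiest of the 10 within groups, with an SD of 0.075 that only 5.91% of all genes undercut.

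Rspo3, the R-spondin of limb mesenchyme and of vessel formation, which acts with Rspo2 in limb growth, was measured by probe set 10368495. Its log2 intensities were 6.97, 6.93, 6.95, 6.82 and 6.81 in wild-type forelimbs (6.90 ± 0.075, SD, n = 5). In knockout forelimbs they were 6.78, 6.62, 6.57, 6.55 and 6.47 (6.60 ± 0.114, SD, n = 5). All knockout forelimbs lay below all wild-type forelimbs, the closest being knockout replicate 1. Wild-type hindlimbs had 6.65, 6.76, 6.69, 6.38 and 6.65 (6.62 ± 0.145, SD, n = 5). Knockout hindlimbs had 6.49, 6.50, 6.26, 6.31 and 6.23 (6.36 ± 0.13, SD, n = 5). Here the groups overlapped, because wild-type replicate 9, at 6.38, lay below 2 of the knockout arrays.

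Over both limb types Rspo3 fell by 0.28 (SE 0.0541, 95% interval -0.39 to -0.17, limma adjusted p = 0.00564), or 17.8% less signal. Taken by limb type the change was close in size but did not pass the test, at -0.30 in forelimbs (SE 0.0765, adjusted p = 0.0559) and -0.27 in hindlimbs (SE 0.0765, adjusted p = 0.308). The difference between these effects was 0.03 (SE 0.108, 95% interval -0.19 to 0.26). The forelimb value passed without wild-type hindlimb replicate 9 (adjusted p = 0.0294), without knockout forelimb replicate 1 (-0.34, 0.0322) and without knockout hindlimb replicate 6 (0.0496). All groups share an estimate of the spread, so an array outside the comparison can change its p.

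Markers of other cell types moved with genotype in the same arrays, and in forelimbs so did sex. Of 18 skeletal muscle markers, 5 fell over both limb types and 6 in forelimbs, while none passed in hindlimbs. Their summed intensity was 7421 to 10142 in wild-type and 6327 to 7956 in knockout forelimbs, and 5093 to 6248 in wild-type and 4622 to 6401 in knockout hindlimbs (lowest intensity of a single marker 14.5, below the array medians). With the muscle mean as a covariate Wnt11 still fell by 0.38 over both limb types (limma adjusted p = 0.000228) and by 0.45 in hindlimbs (0.00024). Its forelimb change of -0.31 did not pass (0.176), and neither did Rspo3 over both limb types, at -0.23 (0.231). The muscle mean did not overlap between forelimb genotypes, at 7.74 to 8.16 in wild type and 7.34 to 7.72 in knockouts. In forelimbs that fit can therefore hardly separate genotype from muscle. In the 13 male arrays alone, of which 2 were knockout forelimbs, Wnt11 fell by 0.43 (0.00156) and the change of Rspo3 was -0.20 (0.503). Adjusting every array for Y-linked signal instead left both genes called over both limb types. The changes were then -0.40 for Wnt11 (limma adjusted p = 1.01e-05) and -0.27 for Rspo3 (0.0167). In hindlimbs the male arrays gave Wnt11 a change of -0.43 that did not pass (0.0851), with 3 arrays in each group. Of 6 measured osteoblast and perichondrium markers, 4 fell over both limb types, with summed intensities of 1337 to 2614 in wild-type and 900 to 1577 in knockout forelimbs, and 819 to 1531 in wild-type and 963 to 1464 in knockout hindlimbs (lowest intensity of a single marker 8.57, also below the array medians). Of 10 endothelium markers Tek and Emcn fell, with summed intensities of 1047 to 1302 in wild-type and 923 to 1185 in knockout forelimbs, and 924 to 1171 in wild-type and 902 to 1114 in knockout hindlimbs. Of 9 macrophage markers Csf1r and Mrc1 fell, of 8 measured neuron and Schwann cell markers 2 fell and 1 rose, and none of 14 cartilage markers passed. In forelimbs the same 4 osteoblast and perichondrium markers passed, as did Tek, Csf1r, Mrc1, Gap43 and Dcx. In hindlimbs no osteoblast and perichondrium, endothelium or macrophage marker passed, while the neuron marker Gap43 did. The part of these other markers in the results was not tested.

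**Figure D2:**
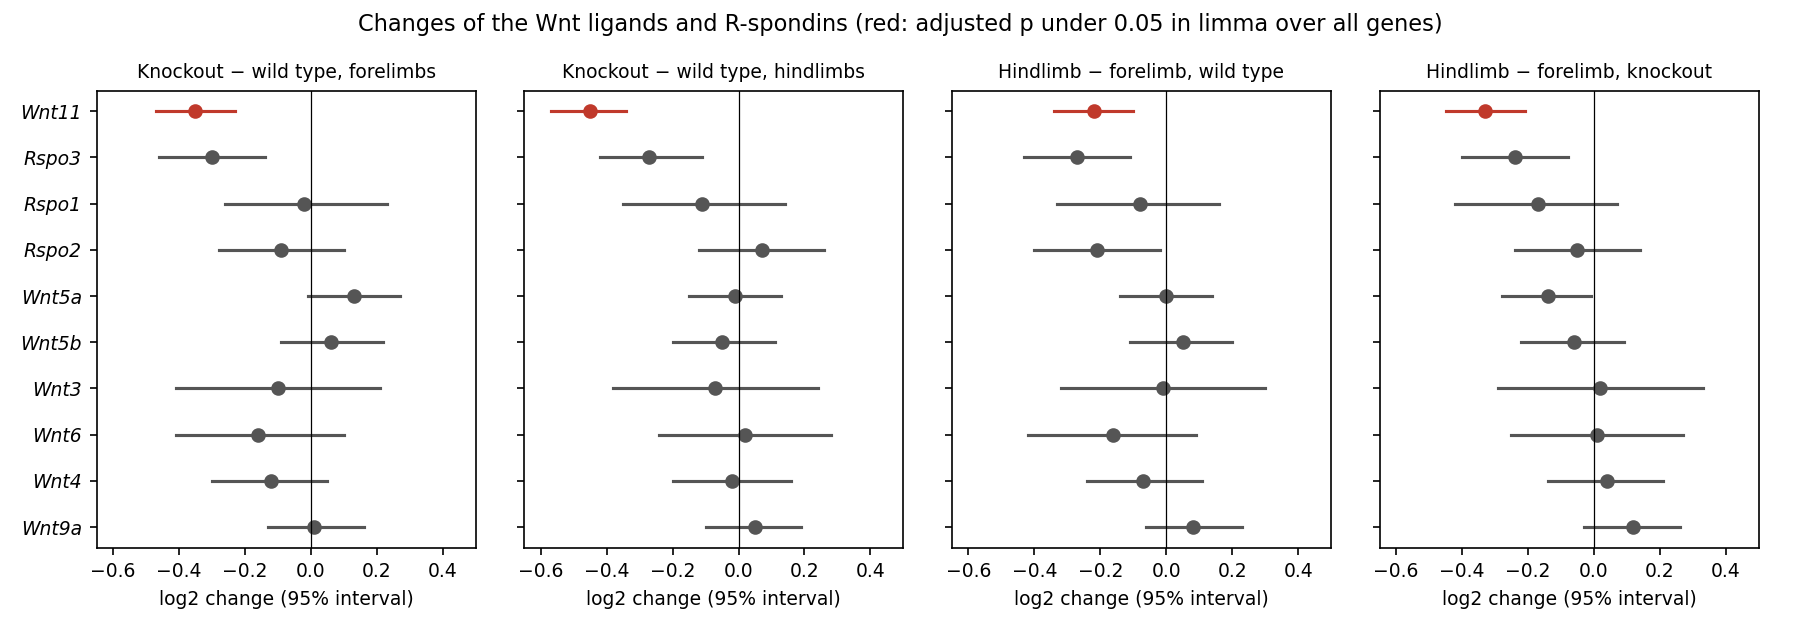
Log2 change (points) and 95% interval (lines) of the 10 genes in the 4 comparisons between groups of 5 arrays, with genes past the limma threshold in red. Wnt11 is red in all 4 panels, and Rspo3 lies below 0 in each without passing.

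The other R-spondins did not pass the test for genotype. Rspo1, best known for its role in ovary determination, ranged from 4.83 to 5.54 over the 20 arrays, and its change over both limb types was -0.06 (SE 0.0829, 95% interval -0.23 to 0.11, adjusted p = 0.793). Rspo2, made in the apical ridge and needed for complete limbs in mice, ranged from 5.23 to 5.80, with a change of -0.01 (SE 0.0644, 95% interval -0.14 to 0.12, adjusted p = 0.972). Signal over background is unknown on these arrays, and Rspo1 lay at levels that overlap those of Tbx5 in hindlimbs. Rspo2 and Wnt9a lay at levels that overlap those of Pitx1 in forelimbs, 5.18 to 5.75. Wnt3, Wnt4, Wnt5b, Wnt6 and Wnt11 overlapped the levels of Tbx4 in forelimbs, 5.58 to 6.4. So did Rspo3 in wild-type hindlimb replicate 9 (6.38) and knockout hindlimb replicates 8 (6.26), 9 (6.31) and 10 (6.23). How closely small changes in signal at these levels follow changes in RNA is therefore unknown. No test compared the R-spondins with each other. Rspo1 varied widely within groups (SD 0.201, more than 86.9% of genes), with knockout forelimbs spread from 4.88 to 5.54.

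Wnt5a, the ligand of distal outgrowth and of cartilage cell polarity through Ror2, was steady. It lay between 9.33 and 9.72 in all arrays, with a within-group SD of 0.096. Knockout forelimbs had the highest mean, 9.59 ± 0.084 (SD, n = 5), against 9.46 ± 0.118 in wild-type forelimbs, 9.45 ± 0.093 in wild-type hindlimbs and 9.44 ± 0.087 in knockout hindlimbs. The forelimb difference of 0.13 did not pass (SE 0.0662, 95% interval -0.01 to 0.27, adjusted p = 0.404), and the change over both limb types was 0.06 (SE 0.0468, adjusted p = 0.583). Wnt5b, its close relative in cartilage and perichondrium, ranged from 5.99 to 6.44 and changed by 0.01 (SE 0.0523, 95% interval -0.10 to 0.12, adjusted p = 0.967). No pair of groups separated for either gene.

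Wnt3, which in the mouse limb ectoderm is needed to form and keep the apical ridge, ranged from 5.58 to 6.59. Its genotype change was -0.08 (SE 0.105, 95% interval -0.30 to 0.14, adjusted p = 0.773). Wnt6, another ectodermal ligand, ranged from 5.68 to 6.32 and changed by -0.07 (SE 0.0881, 95% interval -0.25 to 0.11, adjusted p = 0.775). Both varied more between limbs of a group than most genes did, with within-group SDs of 0.263 and 0.216 that exceeded those of 96.1% and 90.3% of genes.

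That spread followed the epidermis markers. After group means were subtracted, Wnt3 correlated with the mean of 15 epidermis markers at r = 0.92 and rho = 0.84 over 20 arrays (permutation within groups, adjusted p = 0.000975 for each). Without the 2 arrays farthest from the median marker level, r was 0.84. For Wnt6, r was 0.90 and rho 0.89 (permutation adjusted p = 0.00065 for each), and 0.82 without those 2 arrays. Wnt3 and Wnt6 correlated with each other at r = 0.88 (adjusted p = 0.00108) and rho = 0.84 (adjusted p = 0.00173). Without the 2 arrays whose Wnt6 deviations lay farthest from their median, r was 0.79. These adjusted values cover 65 relations, 20 of them to the epidermis and muscle means and 45 between pairs of the 10 genes, and no relation to the muscle mean passed. In knockout hindlimb replicate 6 the epidermis mean was 7.62, the highest of all arrays, and Wnt3, Wnt6 and Wnt4 were all higher there than in the other 4 arrays of its group. None of the 15 epidermis markers passed for genotype (limma), and their summed intensity overlapped between genotypes, at 2871 to 4352 in wild-type and 2272 to 4520 in knockout forelimbs, and at 2407 to 3299 and 1967 to 4454 in hindlimbs. For Wnt11 the correlation with the epidermis mean was 0.12 (adjusted p = 0.822) and for Rspo3 0.28 (adjusted p = 0.507).

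**Figure D3:**
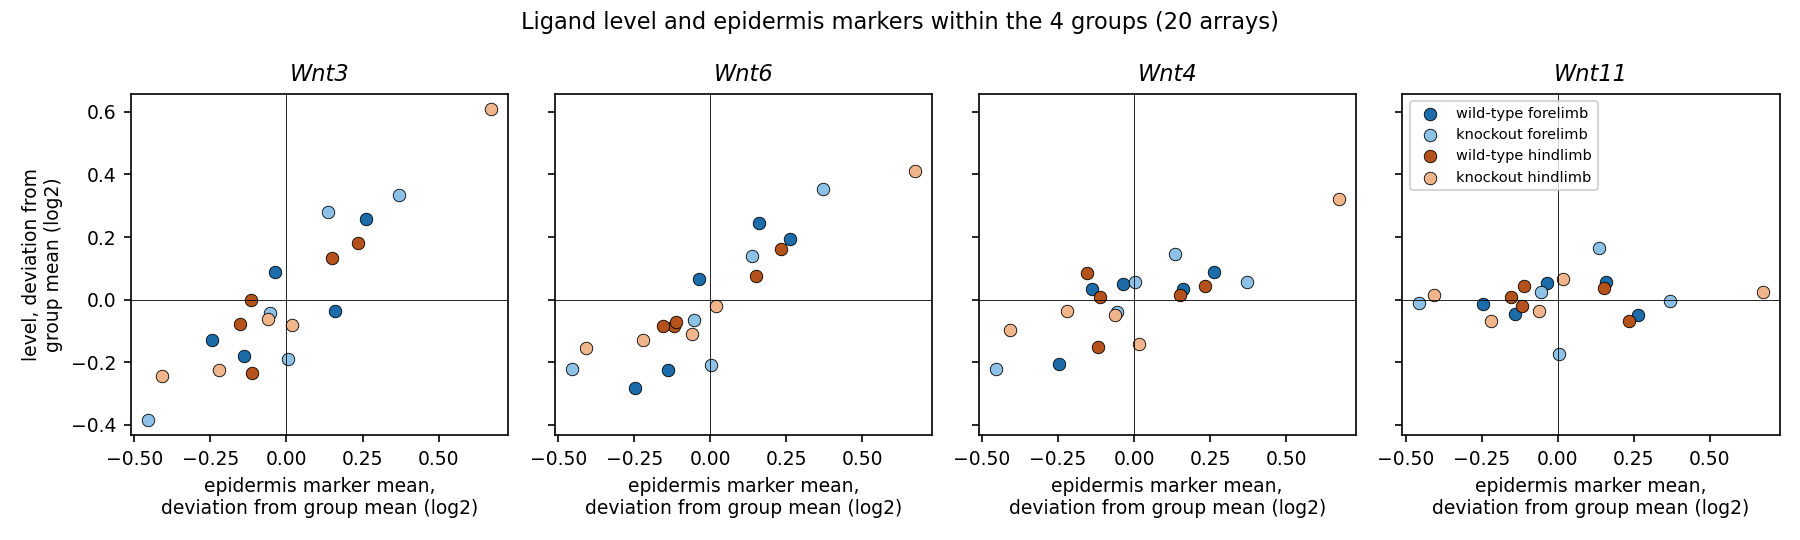
Deviation of 4 ligands from their group mean against the deviation of the epidermis marker mean, both in log2 units, for 20 arrays coloured by group. Wnt3 (r = 0.92) and Wnt6 (r = 0.90) rise along the diagonal, Wnt4 less tightly (r = 0.78), and Wnt11 stays flat (r = 0.12), with knockout hindlimb replicate 6 at the far right of each panel.

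Wnt4 and Wnt9a, which mark developing joints and help keep joint cells from becoming cartilage, did not pass for genotype. Wnt4 ranged from 6.09 to 6.67 and changed by -0.07 (SE 0.0603, 95% interval -0.20 to 0.05, adjusted p = 0.622). Its other probe set, 10509267, gave -0.06 (SE 0.0635, adjusted p = 0.687), and neither of its probe sets passed in any comparison. Wnt4 also correlated with the epidermis mean, at r = 0.78 (permutation adjusted p = 0.0364) but rho = 0.67 (adjusted p = 0.0609), and at 0.66 without the 2 farthest arrays. Wnt9a ranged from 5.39 to 5.78 and changed by 0.03 (SE 0.0492, 95% interval -0.07 to 0.13, adjusted p = 0.835). Of 8 joint interzone markers, 2 fell over both limb types, the matrix genes Col3a1 and Dcn, and Gdf5 was not among them. Col3a1 and Dcn also passed in forelimbs, while no joint interzone marker passed in hindlimbs.

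Wnt11 was also lower in hindlimbs than in forelimbs, in both genotypes. In wild type 1 of the 10 genes passed, where 3.26% of all genes did, and Wnt11 fell by 0.22 (SE 0.0572, 95% interval -0.34 to -0.10, limma adjusted p = 0.0343). In knockouts 1 of the 10 passed, where 0.617% of all genes did, and Wnt11 fell by 0.33 (SE 0.0572, 95% interval -0.45 to -0.21, adjusted p = 0.00643). Its arrays did not overlap between limb types in either genotype. The group means thus ran from wild-type forelimb through wild-type hindlimb and knockout forelimb to knockout hindlimb, in steps of 0.22, 0.13 and 0.33, and the middle groups overlapped in range. Genotype and limb-type comparisons share arrays.

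The wild-type limb-type call for Wnt11 was lost in several settings. It did not pass with arrays centred on their median (adjusted p = 0.0833), with the Y-linked covariate (0.0617), in male arrays (0.141) or with the epidermis covariate (0.07). It was also lost without any of wild-type forelimb replicates 3 (adjusted p = 0.0921), 4 (0.09) and 5 (0.0554) and wild-type hindlimb replicates 6 (0.084), 7 (0.0531), 8 (0.0622) and 9 (0.0804). All 18 muscle markers were lower in wild-type hindlimbs and 3 of 18 in knockout hindlimbs, and the muscle mean did not overlap between wild-type limb types, at 7.74 to 8.16 in forelimbs and 6.98 to 7.43 in hindlimbs. With that mean as a covariate the Wnt11 change was -0.16 in wild type (SE 0.107, adjusted p = 0.999) and -0.30 in knockouts (SE 0.0731, 0.164). In wild type that fit can hardly separate limb type from muscle, because the muscle mean did not overlap. The knockout call was also lost in male arrays alone, at -0.22 (adjusted p = 1.0), and when only the 2 groups compared were fitted (0.0981).

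Rspo3 followed the same order of group means, in steps of 0.27, 0.03 and 0.24, without passing for limb type. Its hindlimb minus forelimb change was -0.27 in wild type (SE 0.0765, 95% interval -0.43 to -0.11, adjusted p = 0.0526), with no overlap between arrays, and -0.24 in knockouts (SE 0.0765, adjusted p = 0.223), with overlap. In all, 2 of the 10 genes had every wild-type hindlimb array below every wild-type forelimb array, as did 3.2% of all genes, and 1 of the 10 did so in knockouts, as did 0.943%. The corresponding counts for genotype were 2 in forelimbs, where 1.72% of all genes had every knockout array lower, and 1 in hindlimbs, where 0.903% did. Rspo2 had a wild-type limb-type change of -0.21 that did not pass (SE 0.0911, adjusted p = 0.246), and the other 7 genes had adjusted p of 0.556 or more.

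None of the 10 genes passed the test of the difference between the genotype effects in hindlimbs and forelimbs (limma). In it 0.0201% of all genes passed. An unadjusted p under 0.05 was found there for 0 of the 10 and for 723 of all 19936 genes. None of the 10 passed between left and right limbs either, where 0.0% of all genes did and 1889 had an unadjusted p under 0.05. The 1 member among those was Rspo3, at -0.15 in left limbs (SE 0.0452, unadjusted p = 0.00295, adjusted p = 0.315). The first 3 values given for each group are right limbs and the last 2 are left limbs.

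The genes whose levels followed each ligand over the 20 arrays differed by ligand. For Wnt11 they were Calb1 (r = 0.91), which encodes a calcium buffer, Cbln4 (0.91), a secreted cerebellin, and Tmeff2 (0.90), a transmembrane protein, but with group means removed these fell to 0.14, 0.26 and 0.37, so the likeness lay mostly between groups. For Rspo3 they were Ly6e (0.91, and 0.71 within groups), Unc5d, a netrin receptor gene (0.89 and 0.57), and Hhip, an inhibitor of hedgehog ligands (0.89 and 0.69). For Wnt3 they were Gabrp (0.92 and 0.94), Epb41l4a (0.90 and 0.93) and the desmosome gene Dsg2 (0.90 and 0.92), and for Wnt6 the junction gene Jup (0.91 and 0.92), the epithelial integrin gene Itgb4 (0.91 and 0.91) and Dsg2 (0.90 and 0.93). For Wnt4 they were Lypd6b (0.87 and 0.88), Cp (0.83 and 0.82) and Itgb4 (0.82 and 0.80). The nearest genes of Wnt5a were Tmem33 (0.87), Ddhd2 (0.82) and Tbk1 (0.80). For Wnt5b, Wnt9a, Rspo1 and Rspo2 the nearest were Prss55 (0.79), Pik3r5 (0.76), Trpc5os (0.75) and Laptm5 (0.73). These r values rank genes and were not tested.

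Around the ligands, 84 of 85 listed Wnt pathway genes were measured. For genotype over both limb types 1 of the 84 passed (1.19%, against 2.04% of all genes). None passed in forelimbs or hindlimbs, where 1.27% and 0.231% of all genes did. An unadjusted p under 0.05 (limma) was found for 17 of the 84 in forelimbs and 5 in hindlimbs. Among all 19936 genes it was found for 2629 in forelimbs and 1147 in hindlimbs. The gene that passed was Myc, a growth regulator and beta-catenin target, which fell by 0.32 (SE 0.0807, limma adjusted p = 0.0424), a call lost without any of 12 of the 20 arrays taken singly (adjusted p = 0.068 to 0.0898), with the replicate block (0.051), with the Y-linked covariate (0.0775), in male arrays (0.553) and with the muscle covariate (-0.13, 0.743). Of the 13 other Wnt ligands and Rspo4 none passed, with values of 0.13 for Wnt8a (adjusted p = 0.241) and 0.12 for Wnt1 (0.382). Wls, which carries Wnt proteins to the cell surface, had a change of 0.11 (0.192), and Porcn, which adds their lipid, 0.02 (0.9).

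Among 16 receptors and co-receptors none passed for genotype, with -0.11 for the co-receptor Lrp5 (adjusted p = 0.203) and -0.09 for Ror2 (0.339), a receptor of Wnt5a. Among the 5 R-spondin receptors and ubiquitin ligases none passed, with -0.14 for Lgr6 (0.174) and 0.17 for Lgr5 (0.369). With the muscle mean as a covariate Lgr5 passed, at 0.40 over both limb types (0.0105) and 0.61 in forelimbs (0.0208). Over both limb types Lgr5 passed in 1 of 12 alternatives and in 0 of 20 fits without a single array. The muscle mean did not overlap between forelimb genotypes, so in forelimbs the muscle fit can hardly separate genotype from muscle. None of 16 transducers passed, with 0.09 for Pygo2 (0.339) and 0.07 for Pygo1 (0.463), which help beta-catenin to activate genes, and none of 9 planar polarity genes did, with -0.12 for Prickle2 (0.463) and -0.15 for Celsr1 (0.513). Besides Myc, Notum, a feedback enzyme that strips the lipid from Wnt, had -0.14 (0.13), and in forelimbs it passed with array weights (-0.27, 0.0417). The secreted antagonists Sostdc1 and Dkk2 had 0.22 (0.131) and -0.22 (0.197), and none of 13 antagonists passed. Sostdc1 passed with the epidermis mean as a covariate (0.25, 0.00634, and in forelimbs 0.32, 0.0176), and Dkk2 passed with array weights (-0.27, 0.0456) and without wild-type hindlimb replicate 9 (-0.28, 0.0263).

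Between limb types of the wild type 6 of the 84 genes passed (7.14%, against 3.26% of all genes), 4 lower and 2 higher in hindlimbs. Lgr5, an R-spondin receptor, fell by 0.66 (SE 0.124, limma adjusted p = 0.00394), and the Frizzled receptor genes Fzd5 and Fzd9 fell by 0.35 (SE 0.0577, adjusted p = 0.00127) and 0.38 (SE 0.0757, 0.00659). Myc fell by 0.47 (SE 0.114, 0.0248). Sfrp2, a secreted Wnt-binding antagonist, rose by 0.68 (SE 0.0997, 0.00042), and Nkd2, a feedback inhibitor, rose by 0.34 (SE 0.08, 0.0188). In knockouts 3 of the 84 passed (3.57%, against 0.617% of all genes), Lgr5 falling by 0.75 (SE 0.124, 0.00382), Fzd5 by 0.27 (SE 0.0577, 0.0253) and Sfrp2 rising by 0.57 (SE 0.0997, 0.00643). With the muscle mean as a covariate none of these limb-type calls remained, with changes in wild type of 0.00 for Lgr5, -0.32 for Fzd5, -0.46 for Fzd9, 0.09 for Myc, 0.05 for Nkd2 and 0.58 for Sfrp2 (adjusted p from 0.625 to 1.0), and in knockouts -0.42 for Lgr5, -0.26 for Fzd5 and 0.52 for Sfrp2 (0.165 to 0.328). In wild type the muscle mean did not overlap between limb types, so that fit can hardly separate limb type from muscle. There the SE rose from 0.0577 to 0.109 for Fzd5 and from 0.0997 to 0.187 for Sfrp2. Single arrays ended the wild-type calls of Myc (5 of 20) and Nkd2 (3 of 20) and the knockout call of Fzd5 (7 of 20). In male arrays the knockout calls of Lgr5 (0.56), Fzd5 (0.49) and Sfrp2 (0.705) were lost, with only the 2 groups fitted those of Fzd5 (0.114) and Sfrp2 (0.0908), and with the epidermis covariate the wild-type calls of Myc (0.0713) and Nkd2 (0.0545).

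**Figure D4:**
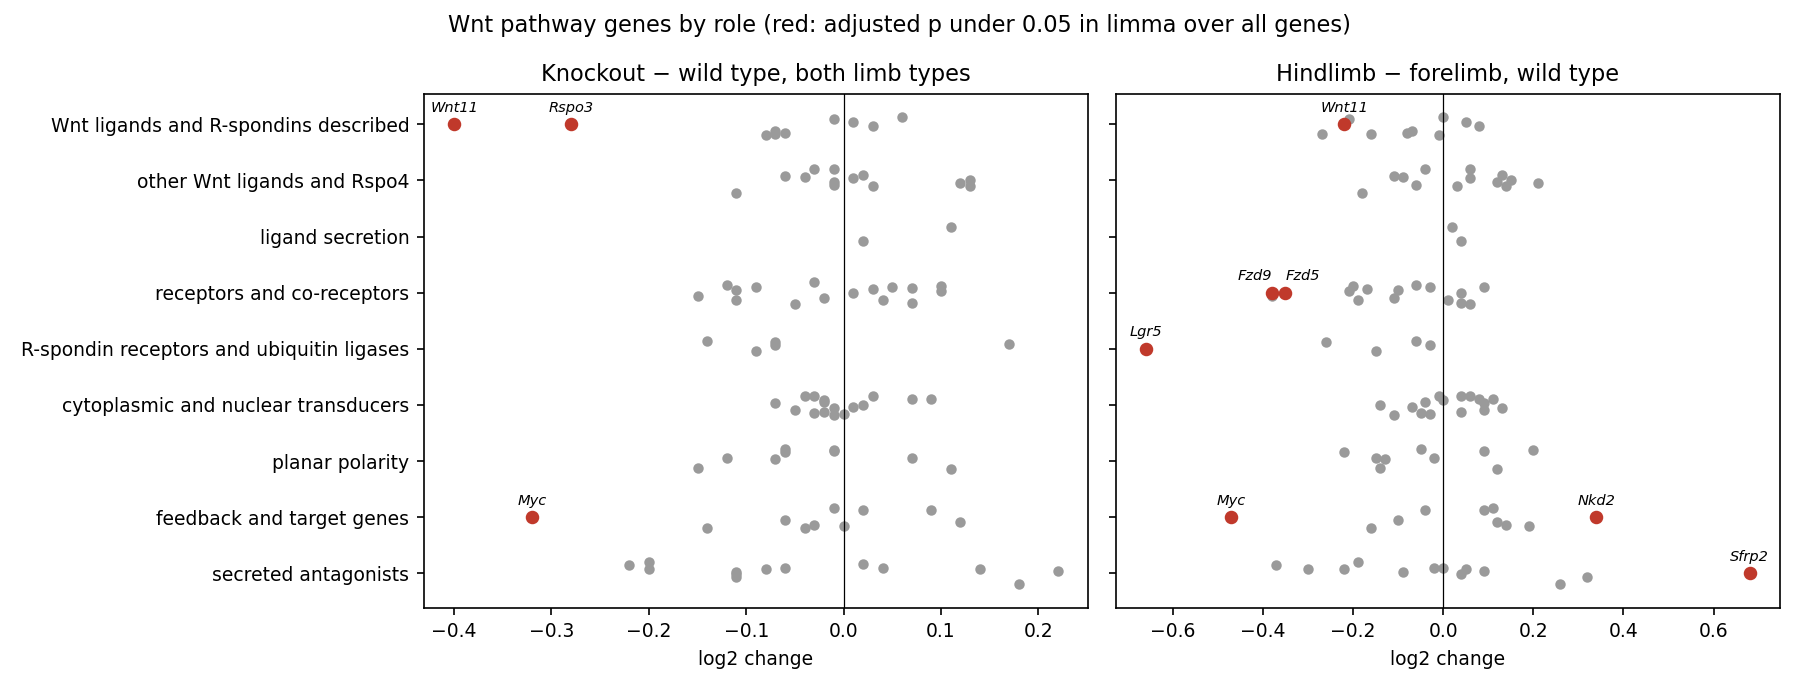
Log2 change of the 10 genes and of the 84 measured Wnt pathway genes by role, for genotype over both limb types and for limb type in wild type, with genes past the limma threshold in red and named. For genotype Wnt11, Rspo3 and Myc are red, and for limb type Lgr5, Fzd5, Fzd9, Myc, Wnt11, Nkd2 and Sfrp2.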

How the data were processed

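Single limbs of 129Sv embryos were profiled on Affymetrix GeneChip ST arrays from 300 ng of total RNA, per the labels' protocols. The deposited values are linear intensities that the authors obtained by RMA (per the submitters' processing notes), and they run from 1.65 to 13033. The version of RMA, the annotation and the build were not given in the sources used here. Detection calls and scanner files were not analysed here, so signal over background is unknown, and the number of arrays limits the precision. The log2 of the deposited intensity was taken here, with no pseudocount.

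Of 35512 probe sets, 21789 carried 1 gene symbol, 1621 several and 12101 none in the platform table, and 1 was empty. Names were updated through Entrez identifiers for 21698, and the highest-mean probe set per gene left 19936 genes. Groups came from the labels. A limma 3.58.1 fit with 4 group means served every comparison (R 4.3.3, lmFit, contrasts.fit, eBayes), except left against right, where side was added. Benjamini-Hochberg adjusted p under 0.05 over all genes was the threshold. Relations within groups used 100000 permutations, two-sided (Python 3.11.15, scipy 1.17.1), the smallest p of which is 1e-05. Alternatives covered scaling, array weights, the prior, dim genes, a pseudocount of 16, sex, muscle and epidermis covariates, blocks, the arrays fitted and the probe sets. The random block joined arrays of a genotype with the same number in their descriptions, which the labels do not tie to an embryo. Its estimated correlation was -0.0517, below 0, and with it the SE of Rspo3 over both limb types was 0.05, against 0.0541. The scripts were tested on simulated data. The 10 genes and all lists were chosen with earlier results of these data known. The text names the 10 genes, every pathway gene past the threshold, otherwise up to 2 per list with the smallest p for genotype, and for likeness the 3 genes with the highest r (printed for 6 of the 10, and the nearest gene for the others). Upstream windows are from RefSeq on GRCm38.p6, and no arrays held identical values.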

Additional observations from a re-analysis of the deposited data

Results flagged for a closer look

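In 6 of the 44 groups of 5 arrays tested, 1 array stood apart from the other 4 by more than Dixon's critical gap of 0.71 of the range, and chance flags about 1 group in 20. Knockout hindlimb replicate 6 held 3 of them: Wnt3 at 6.59 on the log2 intensity scale (the others at 5.74 to 5.92), Wnt4 at 6.67 (6.21 to 6.31) and Wnt6 at 6.32 (5.75 to 5.89). The epidermis marker mean of that array was 7.62, the highest of all 20. Wnt3, Wnt4 and Wnt6 correlated with each other within groups (r from 0.7 to 0.88), so their 3 flags were not independent of each other. Wild-type forelimb replicate 1 was low for Wnt4, at 6.23 (6.47 to 6.52), and wild-type forelimb replicate 3 for Wnt5b, at 6.01 (6.16 to 6.19). Wild-type hindlimb replicate 9 was low for Rspo3, at 6.38 (6.65 to 6.76), and without that array Rspo3 fell by 0.31 over both limb types (limma, adjusted p = 0.000955).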

How the results depend on the processing

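Wnt11 fell over both limb types in all 12 alternatives and without any of the 20 arrays, by 0.33 to 0.43 (limma, adjusted p from 1.88e-07 to 0.00156). Rspo3 lost that call in male arrays and with the muscle covariate, leaving 1 of the 10 genes called instead of 2 (2 without any single array). In forelimbs 1 of the 10 passed, 2 with a trended prior, without dim genes, with a pseudocount, with the random block or with the replicate block, and 0 with the muscle covariate (1 to 2 without single arrays). In hindlimbs 1 passed, 2 with array weights and 0 in male arrays (1 to 1 without single arrays). For limb type in wild type 1 passed, 2 with a trended prior, without dim genes or with a pseudocount, and 0 with centred arrays, the Y-linked, muscle or epidermis covariate or male arrays (0 to 2 without single arrays). In knockouts 1 passed, and 0 in male arrays, with the muscle covariate or with only the 2 groups fitted. Of 2243 values of the 10 genes under alternatives, 2069 kept side and direction, 19 lost a call, 17 gained one, 138 changed sign uncalled and 0 reversed. Myc had a limb-type change of 0.09 in wild type with the muscle covariate (adjusted p = 0.999), against -0.47, and the cause was not tested.

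Over all genes the genotype count of 406 was 768 with array weights, 67 in male arrays, 91 with the muscle covariate and 651 with the random block (260 to 595 without single arrays). In forelimbs 253 became 139 with the Y-linked covariate, 37 in male arrays, 41 with the muscle covariate and 163 with only the 2 groups fitted (124 to 436). In hindlimbs 46 became 82 with array weights and 13 in male arrays (33 to 54). For the difference 4 became 9 with array weights, 1 without dim genes and 0 in male arrays or with the muscle covariate (1 to 10). For limb type in wild type 650 became 1260 with array weights, 419 in male arrays, 12 with the muscle covariate and 411 with the epidermis covariate (311 to 848). In knockouts 123 became 210 with array weights, 13 in male arrays, 39 with the muscle covariate and 44 with only the 2 groups fitted (60 to 140). The left-right count was 0 to 1 without single arrays. Centring arrays on their median turned 93 higher and 313 lower genes for genotype into 194 and 258, 48 and 205 in forelimbs into 88 and 169, and in the wild-type limb comparison 154 and 496 into 314 and 448.

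Wild-type and knockout arrays share replicate numbers in their titles. Same-numbered arrays correlated at -0.31 to 0.26, and 3 of 10 knockout arrays correlated best with their own number. These values showed no clear pairing by number, but with so few arrays they cannot exclude it. With a replicate block the genotype counts were 356 over both limb types, 231 in forelimbs, 43 in hindlimbs and 3 for the difference.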
